A study of Caenorhabditis elegans with 2 samples.

Results

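The genes described here encode the acid-acting digestive and lysosomal hydrolases of the nematode gut. They are the aspartic proteases (asp), the cysteine proteases of the cathepsin B type (cpr), cathepsin L type (cpl) and cathepsin Z type (cpz), and the acid phosphatases (pho), which are not proteases. A gene was a member if its symbol began with 1 of these 5 class names followed by a number and at least 1 probe set named that gene alone. This gave 37 genes with 43 probe sets, of 17118 genes on the array, as 15 asp, 8 cpr, 1 cpl, 2 cpz and 11 pho genes. Whole hermaphrodites of the wild-type Caenorhabditis elegans strain N2 were compared at the fourth larval stage (L4). The exposed animals were raised from the first larval stage for 48 hours on plates with 2 µg/mL pOPC7, a gallate ester of a proanthocyanidin trimer from grape seed. The control animals were raised for the same 48 hours on plates without it, and Escherichia coli OP50 was the food of the parent population. Each group had 1 array, so there is no replicate, no test was possible, and every difference below is a value of these 2 arrays.

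Aspartic proteases cut proteins with a pair of aspartate residues at an acid pH, as pepsin and cathepsin D do in mammals. Cathepsins B, L and Z use a catalytic cysteine and also work best in acid compartments. In the worm these enzymes digest bacterial food in the intestinal lumen and break down proteins in lysosomes, and acid phosphatases remove phosphate groups in the same acid compartments. GATA factors such as ELT-2 switch on many genes of the differentiated intestine. Because whole animals were used, the arrays do not show in which tissue a gene was expressed, and the word gut rests on what is known of these classes. A difference in the number of intestinal cells and a difference in RNA per cell could not be told apart.

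Values are RMA expression values on the log2 scale, and a difference is pOPC7 minus control. A gene whose 2 values averaged 6 or more was called measured, which was the case for 8059 genes. Over all probe sets the median was 5.99 with pOPC7 and 5.94 in the control. The median difference of the measured genes was 0.04, and 57.8% of them were above 0. The SD of their differences was 0.20. Pairs of probe sets for the same gene gave an SD of 0.22 for the difference of a single probe set and 0.15 for a mean of 2, which is the only error that these arrays allow to be estimated. It covers disagreement between probe sets, not between animals or cultures.

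Of the 37 members 22 were measured, and none of the 22 was 1.5-fold higher or lower in exposed larvae. Among all measured genes 0.732% were higher and 0.211% lower by 1.5-fold, so a count of 0 in 22 is near the background and not particular to these genes. Of the 22, 14 were above 0 and their median difference was 0.07. A difference under 1.2-fold was found for 20 of the 22 (90.9%), against 82.3% of all measured genes, but the members lie at higher levels than most genes. At levels from 6 to 8 the share was 80.0% of 5 members against 78.0% of all genes, from 8 to 10 it was 87.5% of 8 against 87.1%, and from 10 it was 9 of 9 against 93.1%. The 17 measured protease genes, with the acid phosphatases left out, all lay within 1.2-fold, from -0.19 to 0.14. Only pho-11 and pho-13 lay outside 1.2-fold. No measured member lay outside the central 95% of the differences of all genes in its own range of levels (6 to 8, 8 to 10, or 10 and over).

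**Figure D1:**
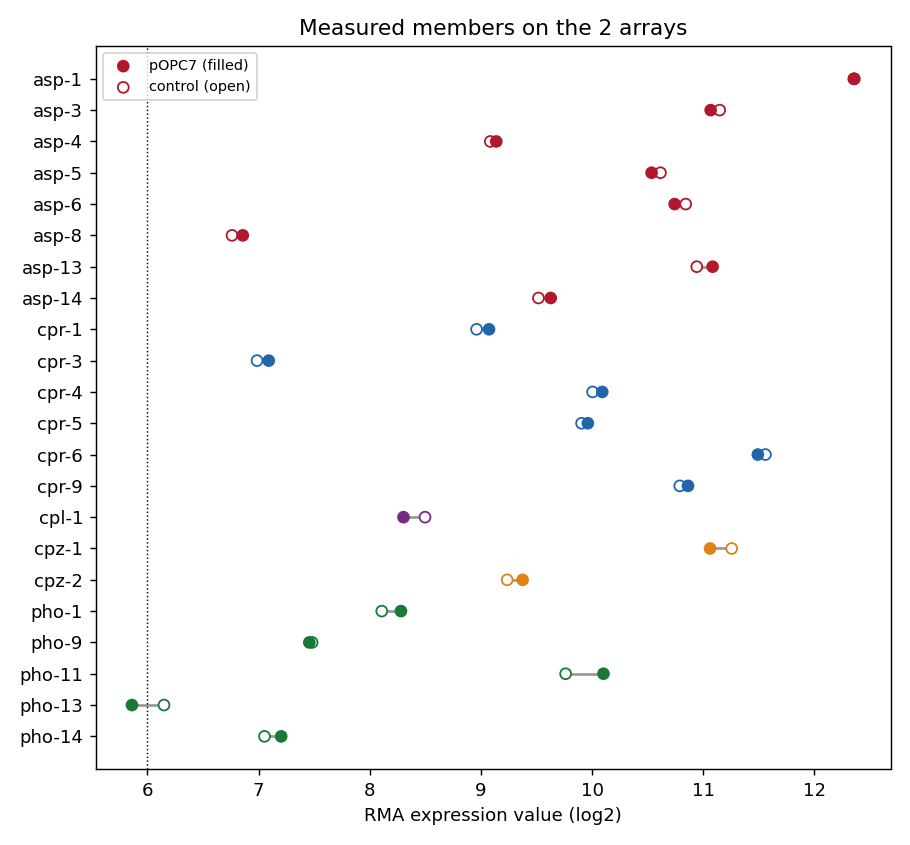
RMA expression values (log2, horizontal axis) of the 22 measured members on the pOPC7 array (filled circles) and the control array (open circles), coloured by class, with the limit of 6 dotted. The 2 circles nearly coincide for most genes, and the widest gaps are those of pho-11 (0.34) and pho-13 (-0.29).

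Among the aspartic proteases 8 of 15 genes were measured. Their median difference was 0.03, with 5 above 0 and 3 below, and the class spanned -0.10 to 0.14. The sign of this median is not settled, since it was -0.01 after centring on the median of all measured genes and -0.04 over the 4 genes that keep a value without probe sets that may match several transcripts. asp-1, an aspartic protease made in the intestine, had 12.36 with pOPC7 and 12.35 in the control, a difference of 0.01. Its sign turned after centring (-0.03). This was the smallest difference of the 22 measured members.

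asp-3 and asp-4 encode cathepsin D-like enzymes that are needed for necrotic death of neurons in the worm. asp-3 had 11.07 with pOPC7 and 11.15 in the control (-0.08). asp-4 had 9.14 with pOPC7 and 9.08 in the control (0.05), and both of its probe sets were above 0 (0.02 and 0.09). All of these differences are below the SD between probe sets.

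The other measured members of the class are known by sequence as pepsin-like or cathepsin D-like proteases. asp-5 had 10.54 with pOPC7 and 10.62 in the control (-0.08), and its 2 probe sets gave the same value to 2 decimals. asp-6 had 10.74 with pOPC7 and 10.84 in the control (-0.10), with -0.14 and -0.06 in its probe sets. These 2 genes and asp-3 were the measured asp genes below 0. asp-13 stood at the other end of the class, with 11.08 with pOPC7 and 10.94 in the control (0.14). asp-14 had 9.63 with pOPC7 and 9.52 in the control (0.11). asp-8 had 6.86 with pOPC7 and 6.76 in the control (0.10). The class thus held genes on both sides of 0 by similar amounts.

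Of the 8 cathepsin B-like genes 6 were measured, 5 of these were above 0, and their median difference was 0.08, within a range of -0.07 to 0.11. cpr-1, a cysteine protease gene expressed in the gut, had 9.07 with pOPC7 and 8.96 in the control (0.11). cpr-4, whose product can be secreted, had 10.092 with pOPC7 and 10.005 in the control (0.09). cpr-3 had 7.09 with pOPC7 and 6.99 in the control (0.11), with 0.20 and 0.01 in its probe sets, both of the kind that may cross-hybridise. The near equality of the gene values of cpr-1 and cpr-3 therefore stands beside a spread between the probe sets of cpr-3 that is about as wide as the whole class. With the brightest probe set of each gene cpr-3 was at 0.20 and the class ran from -0.07 to 0.20.

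cpr-5 had 9.96 with pOPC7 and 9.91 in the control (0.06). cpr-9 had 10.86 with pOPC7 and 10.79 in the control (0.07). cpr-6, of the cathepsin B type like the whole class, had 11.49 with pOPC7 and 11.56 in the control (-0.07). It was the only measured cpr gene below 0. The size of each of these differences is under the SD of a single probe set.

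The cathepsin L and Z genes also act outside digestion. cpl-1, the cathepsin L gene, is needed for yolk processing in embryos and takes part in moulting, and it had 8.30 with pOPC7 and 8.50 in the control (-0.19). This mean joins probe sets of very different signal. One had 11.75 with pOPC7 and 11.89 in the control (-0.15), and the other, whose suffix marks possible cross-hybridisation, had 4.86 with pOPC7 and 5.10 in the control (-0.24). The gene passed the limit of 6 only through the first. Both probe sets were below 0.

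cpz-1, a cathepsin Z gene needed for moulting and embryonic development, had 11.06 with pOPC7 and 11.26 in the control (-0.19). It and cpl-1 had the lowest differences among the measured proteases, and each was below 0 by less than 1.2-fold. With the median differences of probe sets with low and with high numbers in their names set equal, cpl-1 was at -0.10 and asp-3 at -0.11, and cpz-1 was lowest at -0.22. Of all measured genes 10.7% had a lower difference than cpz-1. cpz-2, the other cathepsin Z gene, had 9.38 with pOPC7 and 9.24 in the control (0.14). The cpz class thus had 1 gene on each side of 0.

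Of the 11 acid phosphatase genes 5 were measured, and their differences ran from -0.29 to 0.34. Their SD was 0.24 (n = 5 genes) and 0.15 without pho-13, which only the control array brought over the limit, and 3 of the 5 had mean levels under 8, where all genes scatter more. The class median was 0.15, with 3 genes above 0, but it is not settled. It was 0.06 with a limit of 5 on the mean level and also without probe sets that may match several transcripts, 0.09 with the level trend removed, and -0.01 with the brightest probe set of each gene. pho-11, a member of the histidine acid phosphatase family, had 10.10 with pOPC7 and 9.76 in the control. Its difference of 0.34, or 1.27-fold, was the largest of the 22 measured members, rests on 1 probe set, and was higher than that of 94.2% of measured genes. It lies inside the central 95% of genes at levels from 8 to 10 (-0.31 to 0.38).

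pho-1, an acid phosphatase of the gut lumen that embryos need from their mother, had 8.28 with pOPC7 and 8.11 in the control (0.17). This is the mean of 2 probe sets that disagree. One had 7.90 with pOPC7 and 7.55 in the control (0.35), while the other had 8.66 with pOPC7 and 8.67 in the control (-0.01). pho-14 had 7.20 with pOPC7 and 7.05 in the control (0.15). pho-9 had 7.46 with pOPC7 and 7.48 in the control (-0.03). pho-13 had 5.86 with pOPC7 and 6.15 in the control (-0.29, or 0.819-fold). It was the lowest measured member, and it passed the limit of 6 through the control array alone, so its place among the measured genes depends on that value. Just outside the limit stood cpr-8, with a mean of 5.71.

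**Figure D2:**
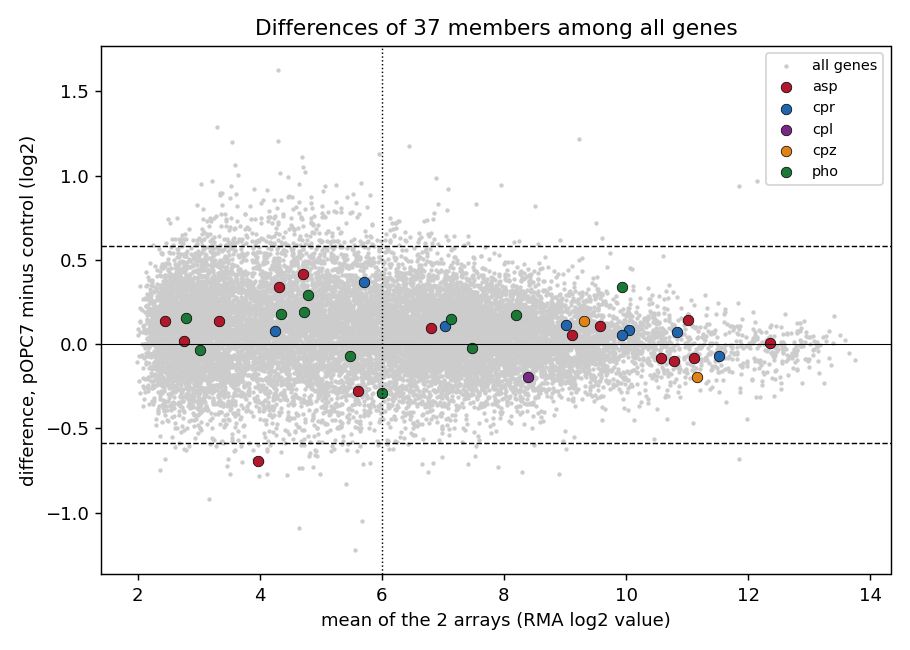
Difference (pOPC7 minus control, log2, vertical axis) against the mean of the 2 arrays (RMA log2 value, horizontal axis) for all 17118 genes in grey and the 37 members coloured by class. Dashed lines mark 1.5-fold and the dotted line the limit of 6. The 1 member past a dashed line is asp-9 (-0.70), left of the limit.

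The remaining 15 members lay below the limit, where a value may be mostly background signal. They were 7 asp, 2 cpr and 6 pho genes, each with 1 probe set, and their values ran from 2.38 to 5.89. asp-9 was the only one past 1.5-fold, with 3.62 with pOPC7 and 4.31 in the control (-0.70, or 0.617-fold). Among all genes below the limit 0.662% were lower and 3.02% higher by 1.5-fold. Of the 15 members 11 were above 0, a share of 73.3% against 61.7% of all genes at these levels, and the median was 0.14 against 0.08.

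All the other members below the limit are given here, outside the rule for named genes. In the asp class asp-17 differed by 0.41, asp-19 by 0.34, asp-11 by 0.14, asp-7 by 0.13, asp-15 by 0.02 and asp-12 by -0.28. asp-11 is annotated as a pseudogene in the RefSeq table for WBcel235. In the cpr class cpr-8 differed by 0.37 (5.89 with pOPC7 and 5.53 in the control) and cpr-2 by 0.08. In the pho class pho-5 differed by 0.29, pho-4 by 0.19, pho-7 by 0.18, pho-6 by 0.15, pho-10 by -0.04 and pho-8 by -0.07. These differences spread more widely than those of the measured members, with an SD of 0.28 against 0.15. All genes show the same contrast, with an SD of 0.26 below the limit and 0.20 above it.

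The signs of the members can be set beside those of all genes at the same level. At levels of 10 and over 4 of 9 members were above 0 (44.4%), against 43.7% of all genes there, and at levels from 6 to 8 it was 3 of 5 members (60.0%) against 61.4%. At levels from 8 to 10, 7 of 8 members were above 0, against 55.6%. The exception there was cpl-1, whose level of 8.40 averages probe sets at 11.82 and 4.98. Neither probe set lies in that range, so its place there is a product of the averaging. The members at 10 and over included asp-3, asp-5, asp-6, cpr-6 and cpz-1, which account for the members below 0 in that range. Their medians were -0.07 for these 9 members and -0.01 for all genes at that level.

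Several members are neighbours in the genome, with no other coding gene or pseudogene between them in the WBcel235 table. In the run asp-6, asp-12, asp-5 and asp-11, asp-6 and asp-5 were measured and below 0, while asp-12 and asp-11 were below the limit. cpr-5 was measured and its neighbour cpr-8 was not. pho-1 was measured and its neighbour pho-4 was not, and the same held for asp-8 and its neighbour asp-7. In each of these runs genes on both sides of the limit thus stood next to each other. Near-identical copies can share probes, and how far that touched these probe sets was not tested.

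Agreement between probe sets could be read for 6 members with 2 probe sets each. Both probe sets had the same sign in asp-4, asp-5, asp-6, cpr-3 and cpl-1, and opposite signs in pho-1. Counting the 5 genes with both probe sets measured, 4 had the same sign, against 48.9% of the 1721 pairs on the whole array. With so few pairs these shares cannot be told apart. The number in a probe set's name also went with its difference over all genes. The 2474 measured probe sets with the lowest numbers, divided from the rest at a number chosen after seeing the data, had a median difference of -0.06, and the other 7971 had 0.06. Of the members' measured probe sets 3 of the 8 low-numbered ones were above 0, against 13 of the other 19. All probe sets of asp-6, cpr-3 and cpl-1 are low-numbered. With the medians of both kinds of probe set made equal, a setting chosen after seeing the data, asp-6 differed by -0.0042, cpr-3 by 0.20 and cpl-1 by -0.10, in place of -0.10, 0.11 and -0.19. The values of these 3 genes therefore depend on how the shift is treated.

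**Figure D3:**
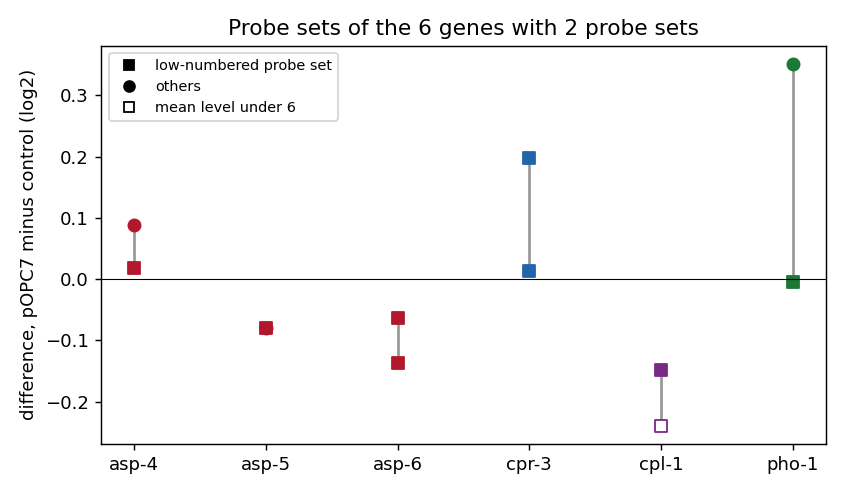
Difference (pOPC7 minus control, log2) of each probe set of the 6 members with 2 probe sets, joined by a line. Squares are low-numbered probe sets, circles the others, and the open square has a mean level under 6. The widest gap is that of pho-1, with 0.35 and -0.01.

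The setting in which these enzymes work was read from 5 lists of related genes. None of their 49 measured genes was 1.5-fold higher or lower, which is near the background of 0.732% and 0.211%. Of the 5 listed intestinal regulators on the array 2 were measured. elt-7, a GATA factor of the intestine, had 7.49 with pOPC7 and 7.15 in the control (0.33). pqm-1, a zinc finger factor, differed by 0.13. elt-2, the main GATA factor of the gut, averaged below the limit at 5.52 with pOPC7 and 5.55 in the control. Its probe sets disagreed, with 0.34 and -0.40. With the brightest probe set of each gene elt-2 passed the limit at 0.34. All 3 genes of this list then measured were above 0, against 61.1% of all measured genes in that setting.

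Genes of intestinal structure and uptake were all measured, 14 of 14, with 9 above 0 and a median of 0.03. The gut esterase gene ges-1 had 7.25 with pOPC7 and 7.24 in the control (0.01). ifo-1, which organises the intermediate filaments of intestinal cells, was lowest of the list (-0.32), vha-6, a subunit of the intestinal proton pump, differed by -0.16, and the filament gene ifd-2 by 0.17. Of these 14 genes 13 lay within 1.2-fold (92.9%), against 82.3% of all measured genes. The list lies at higher levels than most genes, with a median of 8.93 with pOPC7 against 7.71 for all measured genes. Of all genes 78.0% lay within 1.2-fold at levels from 6 to 8, 87.1% from 8 to 10 and 93.1% from 10. The list's log2 values summed to 125.4 with pOPC7 and 125.3 in the control. Such a sum is not an amount of RNA, and opposite differences cancel in it. Muscle markers also had close sums (104.9 with pOPC7 and 104.8 in the control).

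Of the lysosomal genes 13 of 20 were measured, 9 of them above 0, with a median of 0.06. nuc-1, a nuclease of the DNase II type that digests DNA in the gut and in lysosomes, had 8.85 with pOPC7 and 8.48 in the control (0.37). aman-1, a lysosomal mannosidase gene, differed by 0.29. hlh-30, the worm TFEB factor that controls lysosomal genes, differed by -0.31, with probe sets from -0.73 to 0.08. The members of this list thus stood on both sides of 0.

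The protease inhibitors differed in both directions. The cystatins cpi-1 and cpi-2 block cysteine proteases of the cathepsin type. cpi-1 had 9.30 with pOPC7 and 9.13 in the control (0.17). cpi-2 had 10.55 with pOPC7 and 10.37 in the control (0.18), and both of its probe sets were above 0 (0.14 and 0.23). srp-6, a serpin that protects intestinal cells from lysosomal cysteine proteases, had 6.42 with pOPC7 and 6.89 in the control (-0.47), on 1 probe set whose suffix marks possible cross-hybridisation. Of 8 inhibitor genes 4 were measured, and 3 of the 4 were above 0, with a median of 0.09 and a mean of -0.03.

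Among other peptidases 16 of 19 genes were measured, 11 of them above 0, and the median was 0.11, against 0.04 for all measured genes. The prolyl carboxypeptidase-like genes pcp-2 (0.39) and pcp-3 (0.30) were highest and the neprilysin gene nep-1 (-0.30) was lowest. pcp-2 had 8.02 with pOPC7 and 7.63 in the control. Markers of other tissues had medians from -0.03 (germline) to 0.11 (hypodermis), with muscle at -0.01, pharynx at 0.07 and neurons at 0.10, and none of their 49 measured genes was past 1.5-fold, again near the background of 0.732% higher and 0.211% lower.

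**Figure D4:**
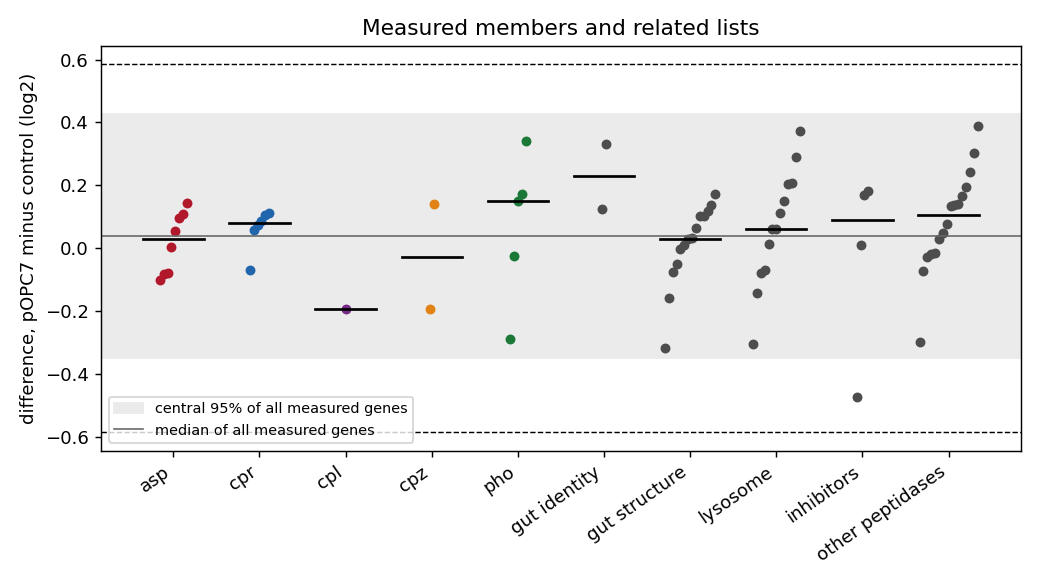
Difference (pOPC7 minus control, log2) of each measured gene in the 5 member classes (coloured) and in the 5 related lists (dark grey), with each group's median as a black bar. The shaded band is the central 95% of all measured genes (-0.35 to 0.43), and dashed lines mark 1.5-fold. All members lie inside the band, and srp-6 (-0.47), among the inhibitors, is the 1 gene plotted outside it.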

How the data were processed

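The deposited table holds log2 expression values of 22625 probe sets on 2 arrays, made by the authors with RMA per the submitters' processing notes. RMA subtracts background, quantile-normalises and summarises by median polish. The log base was read from the range of the values, while the software, its version, the annotation and the number of hybridisations behind a column were not given in the sources used here. Samples were grouped by the labels' treatment. Of the probe sets 20766 had 1 gene symbol, 887 several and 972 none in the platform annotation. All 37 member symbols matched the WBcel235 table by Entrez identifier. The symbols asp-2, asp-16, asp-18 and pho-12 of that table were not analysed here.

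A gene's value was the mean of its probe sets. Differences were set against a limit of 6 on the mean level and thresholds of 1.5-fold, 2-fold and 1.2-fold. The rule for named genes took every measured member, members below the limit past 1.5-fold, the 3 most different measured genes of each related list, and elt-2, ges-1, cpi-1 and cpi-2. Members and lists were chosen with earlier results of these data known, and 9 of 133 list symbols named no gene of the array. The suffixes _s_at, _x_at and _a_at mark probe sets that may match several transcripts. Alternatives changed the limit, centring, level trend (loess, span 0.3), suffixes, probe set choice, class summary, threshold and, after seeing the data, low-numbered probe sets. The code was tested on simulated data. Values were computed in Python 3.11.15 with statsmodels 0.14.6 (loess), pandas 2.3.3 and numpy 2.4.6, and plotted with matplotlib 3.10.9. The number of arrays limits the precision.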

Additional observations from a re-analysis of the deposited data

How the results depend on the processing

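No paired analysis was possible because each group has 1 array, and leaving out a replicate was not possible. The class medians of asp, cpr, cpz and pho were each under the SD of 0.22 for a single probe set. That SD is not the error of a median over several genes. cpl-1 (-0.19) lay beyond the SD of 0.15 for a mean of 2 probe sets. The medians moved with the settings, from -0.037 to 0.089 for asp and 0.043 to 0.087 for cpr. They ran from -0.066 to 0.14 for cpz and -0.0054 to 0.16 for pho, and cpl-1 from -0.23 to -0.098. The sign changed in 2 of 11 settings for asp (-0.0082 after centring), in 1 of 11 for cpz and pho each, and in none for cpr and cpl-1. The share of members above 0 ran from 59.1% to 68.4%, and that of all genes in the same settings from 50.0% to 63.6%. After centring it was 59.1% of members against 50.0% of all genes. With the brightest probe set of each gene it was 59.1% against 61.1%. Without low-numbered probe sets it was 68.4% against 63.6%. Without probe sets that may match several transcripts the asp median was -0.037 (4 genes) and the cpz value 0.14 (cpz-2 alone), because fewer genes keep a value, and cpl-1 has none. With the brightest probe set of each gene the pho median was -0.0054, which is the value of pho-1 on its brighter probe set. With no limit on level 1 member was lower by 1.5-fold, asp-9. No member was higher by 1.5-fold in any setting run. Among the 22 measured members the sign changed only for asp-1, after centring (-0.03) and with low-numbered and other probe sets set to equal medians (-0.02), and for pho-1 with its brightest probe set. The 2 settings on probe set number were chosen after seeing the data. Signal near background limits the 15 members below 6.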
